A study of Mus musculus with 14 samples.

Results

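Accessible chromatin was described at the loci of 8 receptors of the TNF receptor superfamily, Tnfrsf1b, Tnfrsf8, Tnfrsf4, Tnfrsf18, Tnfrsf9, Tnfrsf25, Cd27 and Fas, in splenic regulatory T cells (Tregs). A region of the ATAC-seq count table was assigned to a locus when the protein-coding transcription start nearest its midpoint belonged to one of these genes, or when its midpoint lay inside the gene body. The rule took 57 of 67254 regions, 55 of them by the nearest start and 2 by the gene body alone. Of these, 56 passed the filter on low counts, as did 61366 regions in all. Tnfrsf8 had 16 regions, Tnfrsf1b 13, Tnfrsf9 10, Tnfrsf18, Cd27 and Fas 5 each, Tnfrsf4 3 and Tnfrsf25 2. Because Tnfrsf1b and Tnfrsf8 are neighbours on chromosome 4, 2 regions in a Tnfrsf8 intron lie nearest the Tnfrsf1b start and were counted at both loci. Assignment is by distance only, and no measurement here ties a region to the gene it is named after.

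ATAC-seq counts the DNA that a transposase can cut, so a region with more counts is more accessible. The libraries came from mixed bone marrow (BM) chimeras, in which sublethally irradiated Rag1-/- hosts, which lack mature T and B cells of their own, received a 1:1 mix of CD45.1+ wild-type BM and CD45.2+ BM, and were left to reconstitute for 6 to 8 weeks. The CD45.2+ BM was Foxp3Cre Atg14+/fl in the control group and Foxp3Cre Atg14fl/fl in the Atg14-deficient group, so control Tregs also carried Cre and 1 floxed Atg14 allele. Cre and a YFP reporter are driven from Foxp3, which places the deletion in Foxp3-expressing cells, and only the CD45.2+ cells of a chimera were profiled. Central Tregs (cTregs) were sorted as CD44low CD62Lhigh and effector Tregs (eTregs) as CD44high CD62Llow among CD45.2+ CD4+ Foxp3-YFP+ cells, with n = 3 control and n = 4 Atg14-deficient libraries of each state. Atg14 is the subunit that directs the lipid kinase Vps34 to autophagosome formation, and the study asked whether it shapes Treg chromatin. The labels give no age for the mice. The study's legends count the replicates as chimera mice, with both states sorted from their spleens, while the labels do not tie a library to a mouse.

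TNF receptors are single-pass membrane proteins that are engaged by trimeric ligands of the TNF family. Members without a death domain, such as Tnfrsf1b (TNFR2), Tnfrsf4 (OX40), Tnfrsf18 (GITR), Tnfrsf9 (CD137), Tnfrsf8 (CD30) and Cd27, recruit TRAF adaptors and activate NF-kB, while Fas and Tnfrsf25 (DR3) carry a death domain, through which Fas recruits Fadd and caspase-8. In Tregs, TNFR2, OX40 and GITR are co-stimulatory receptors associated with activation, expansion and the effector state.

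The sequences below are the central 200 bp of the 5 regions that differed between cTregs and eTregs, which the results turn on, and of the Tnfrsf8 and Fas promoter regions, which both hold a match to AP-1 and to NF-kB. They were read from the plus strand of GRCm38, 5′ to 3′, and capitals mark matches on either strand to AP-1 (TGANTCA), forkhead (TGTTTAC), RUNX (TGTGGT), ETS (CCGGAA), TCF-LEF (CTTTGAT) or NF-kB (GGGNNNTCC).
Tnfrsf1b 19.9 kb upstream (chr4:145266626-145266825): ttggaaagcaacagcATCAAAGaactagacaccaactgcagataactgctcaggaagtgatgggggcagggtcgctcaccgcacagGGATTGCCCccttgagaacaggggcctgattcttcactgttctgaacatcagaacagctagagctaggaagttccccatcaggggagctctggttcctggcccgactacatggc
Tnfrsf4 9.5 kb upstream (chr4:156004223-156004422): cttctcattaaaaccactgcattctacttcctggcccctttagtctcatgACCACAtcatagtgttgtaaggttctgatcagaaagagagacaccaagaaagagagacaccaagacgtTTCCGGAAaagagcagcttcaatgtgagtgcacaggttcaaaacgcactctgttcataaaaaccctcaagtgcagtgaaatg
Tnfrsf9 4.6 kb upstream (chr4:150915415-150915614): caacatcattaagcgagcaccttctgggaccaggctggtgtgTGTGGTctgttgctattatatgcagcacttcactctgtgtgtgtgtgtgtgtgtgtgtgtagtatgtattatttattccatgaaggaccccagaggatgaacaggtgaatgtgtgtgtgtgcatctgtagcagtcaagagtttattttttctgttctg
Tnfrsf8 46.2 kb upstream (chr4:145361201-145361400): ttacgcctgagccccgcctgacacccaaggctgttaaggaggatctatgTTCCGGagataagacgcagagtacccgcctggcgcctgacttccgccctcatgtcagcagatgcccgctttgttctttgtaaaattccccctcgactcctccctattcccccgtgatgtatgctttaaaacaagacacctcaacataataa
Tnfrsf1b 28.2 kb upstream (chr4:145275005-145275204): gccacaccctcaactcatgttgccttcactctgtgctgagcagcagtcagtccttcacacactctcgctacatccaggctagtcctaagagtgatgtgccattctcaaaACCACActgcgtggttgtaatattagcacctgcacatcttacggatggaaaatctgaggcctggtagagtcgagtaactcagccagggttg
Tnfrsf8 promoter (chr4:145315164-145315363): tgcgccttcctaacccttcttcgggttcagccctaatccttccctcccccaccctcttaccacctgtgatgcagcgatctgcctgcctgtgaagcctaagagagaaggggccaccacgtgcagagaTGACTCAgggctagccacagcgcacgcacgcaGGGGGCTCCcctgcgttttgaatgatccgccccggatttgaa
Fas promoter (chr19:34290330-34290529): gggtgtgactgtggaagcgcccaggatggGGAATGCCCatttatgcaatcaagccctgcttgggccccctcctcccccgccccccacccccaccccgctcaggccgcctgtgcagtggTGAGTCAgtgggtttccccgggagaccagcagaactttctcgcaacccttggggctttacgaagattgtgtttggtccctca

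In these windows, the Tnfrsf1b region 19.9 kb upstream held 1 TCF-LEF and 1 NF-kB match, the Tnfrsf4 region 1 RUNX match and 2 overlapping ETS matches, the Tnfrsf9 region and the Tnfrsf1b region 28.2 kb upstream 1 RUNX match each, and the Tnfrsf8 region 46.2 kb upstream 1 ETS match. Over all 57 regions, the central 200 bp held RUNX letters in 18 (31.6%, against 23.0% of the 67207 regions on chromosomes), AP-1 letters in 11 (19.3% against 11.6%), ETS and NF-kB letters in 9 each (15.8%, against 7.97% and 11.5%), and TCF-LEF letters in 3 (5.26% against 3.83%). The forkhead letters were in 0 of these windows, against 3.03% of all, and in 3 of the 57 when the whole region was read. The 11 windows with AP-1 letters lay at all loci other than Tnfrsf18, Tnfrsf25 and Cd27. A match describes the letters of a window and does not show that a factor bound there.

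Library totals were 2242983 to 5548189 counts, and values are given as CPM, the counts of a region per 1000000 counts of its library. Promoter regions took 47.2% to 53.8% of the counts. Among control cTregs, replicate 3 had the lowest total and the highest promoter share (53.8%), and the lowest summed accessibility at 8 of the 8 loci, and among Atg14-deficient cTregs replicate 2 was lowest at 8 of 8, with a promoter share of 51.0% against 47.2% to 48.6% in the other libraries of its group. The sorted states were checked against marker promoters: those of Ccr7, Tcf7, Satb1, Klf2 and S1pr1, 5 of 8 cTreg markers, were less accessible in control eTregs and passed the test, and of the 6 eTreg markers with a promoter region none was higher and passed. Of the latter, Cd44 (0.24) and Prdm1 (0.08) had log2 fold changes above 0 and Batf (-0.25), Tigit (-0.09), Pdcd1 (-0.32) and Icos (-0.69, adjusted p = 0.05 by edgeR after rounding, which did not pass) below it, and the promoter of the Treg gene Ctla4 was less accessible in eTregs (-0.56, adjusted p = 0.0497 by edgeR). Foxp3 had 2 regions, of up to 55.3 CPM. The B cell gene Cd79a had 1 region, of 3.47 CPM on average, and Ms4a1 had none. Of the myeloid genes, Lyz2 and Csf1r had none and Itgam had 5 regions, of at most 6.24 CPM on average. Of the CD8 and NK cell markers, the Cd8b1 promoter averaged 16.1 CPM in control cTregs and 4.35 CPM in control eTregs (log2 fold change -1.92, adjusted p = 0.00471 by edgeR). Values of the Atg14-deficient groups were 16.3 and 4.94 CPM. Cd8a had 4 regions of at most 5.34 CPM and no promoter region, and Ncr1 1 of 3.7 CPM. The part of such cells, and of the 2 low libraries, in the differences between states below was not tested beyond leaving out each library.

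The median region of the receptor loci averaged 16.9 CPM over the 14 libraries, against 6.68 CPM over all regions tested. Of the 57, 28 were intronic, 18 intergenic, 9 lay within 500 bp of a start and 2 in an untranslated exon. The median coefficient of variation within groups was 23.4% at these loci and 29.3% over all regions tested. Most of the signal was away from the starts. The region with the highest mean was in a Tnfrsf1b intron, 10.6 kb downstream of the start (chr4:145235927-145236538, 116 CPM), followed by the intergenic regions 7.8 kb upstream of Tnfrsf1b (chr4:145254382-145254928, 96.5 CPM) and 4.1 kb upstream of Tnfrsf18 (chr4:156021410-156022631, 75.7 CPM). Per kilobase of region these were 190.0, 176.0 and 62.0 CPM.

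Among the promoters, ordered per kilobase of region, Tnfrsf8 (chr4:145315038-145315489) had 92.7 CPM per kb, Tnfrsf1b (chr4:145246650-145247065) 74.4, Tnfrsf4 (chr4:156013602-156014014) 49.5, Tnfrsf9 (chr4:150925019-150925339) 45.2, Tnfrsf18 (chr4:156026196-156026391) 40.7, Fas (chr19:34290039-34290821) 37.9, Tnfrsf25 (chr4:152115797-152116379) 31.6 and Cd27 (chr6:125236872-125237162) 26.8. Tnfrsf9 has several annotated coding starts, and a second region (chr4:150927834-150928118) lies at another of them, with 48.9 CPM per kb. Of the 10 Tnfrsf9 regions, 9 also lie within the gene body of Camta1, both promoter regions included, and the one 21.6 kb downstream lies in Camta1 alone. The Cd27 promoter region also lies within the gene body of Vamp1, and the 3 further Cd27 regions up to 4.7 kb upstream are in Vamp1 introns. No test between genes was run, since the regions differ in base composition and length.

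**Figure D1:**
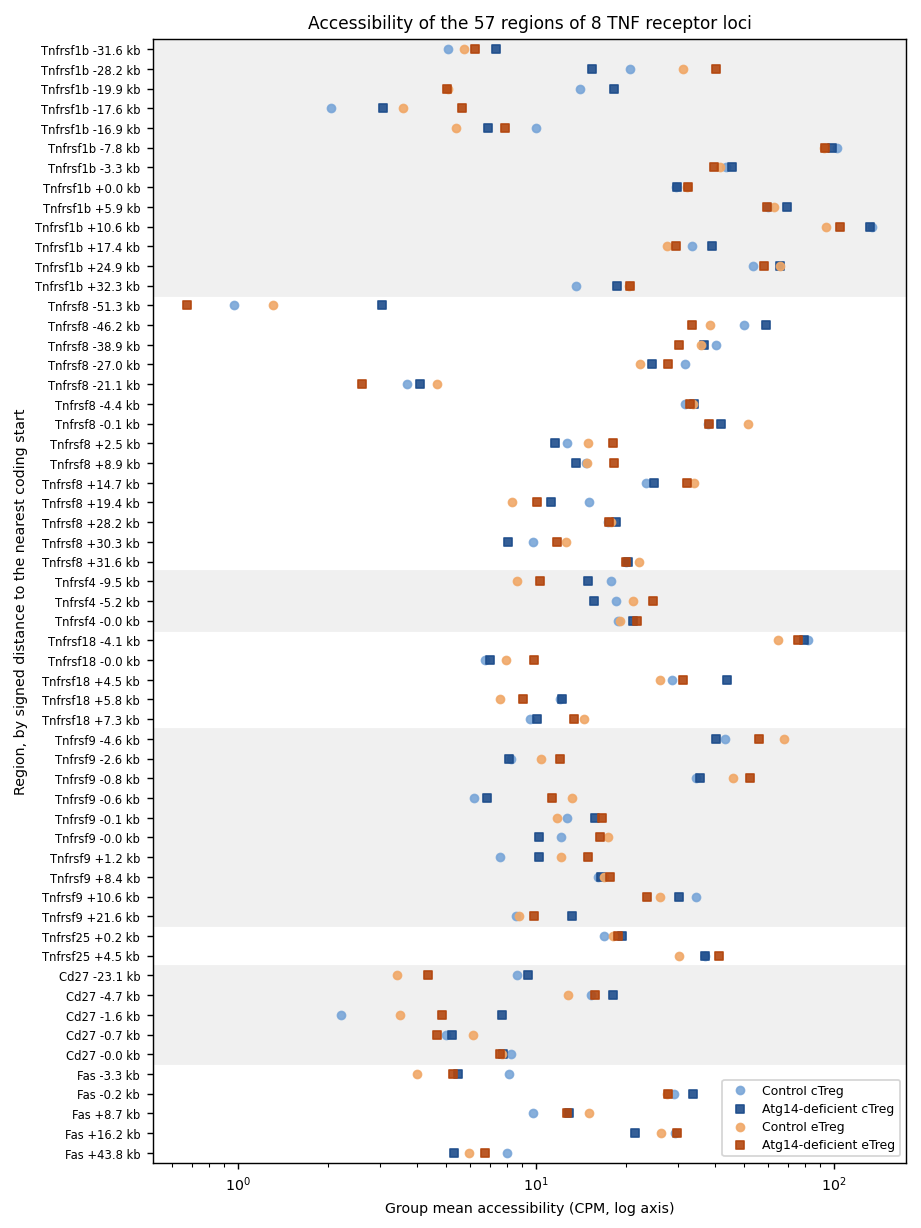
Group mean accessibility (CPM, logarithmic axis) of each of the 57 regions, grouped by gene and labelled by the distance of the midpoint from the nearest coding start of that gene (minus, upstream). Circles are control and squares Atg14-deficient groups, with cTregs in blue and eTregs in orange. The highest values are those of Tnfrsf1b, up to a mean of 116 CPM over all libraries, and the 4 groups lie close together at most regions.

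Summed over a locus, accessibility was of the same order in the 4 groups. At Tnfrsf1b, control cTregs had 575.0, 544.0 and 443.0 CPM, Atg14-deficient cTregs 578.0, 492.0, 604.0 and 521.0, control eTregs 473.0, 508.0 and 481.0, and Atg14-deficient eTregs 593.0, 452.0, 543.0 and 426.0. All 4 groups overlapped. At Tnfrsf8 the group means were 335 ± 82.5 (SD, n = 3), 334 ± 35.2 (n = 4), 349 ± 16 (n = 3) and 340.0 ± 37.4 CPM (n = 4) in the same order, a spread between groups smaller than that within control cTregs. The sums of Tnfrsf4, which encodes a receptor induced on activated T cells, were 55.3 ± 16, 51.8 ± 15.7, 49.0 ± 7.08 and 56.8 ± 11 CPM, and those of its neighbour Tnfrsf18 were 139 ± 22.9, 152 ± 33.3, 121 ± 28.5 and 139 ± 18.0 CPM. Again the libraries of all groups overlapped.

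At Tnfrsf9 the sums were higher in eTregs on average. Atg14-deficient cTregs had 176.0, 164.0, 195.0 and 212.0 CPM and Atg14-deficient eTregs 239.0, 213.0, 243.0 and 229.0 CPM. Each eTreg library was above each cTreg library, the nearest at 213.0 and 212.0 CPM, and the mean was 23.8% higher. In controls the sums were 179.0, 233.0 and 138.0 CPM in cTregs and 210.0, 258.0 and 223.0 CPM in eTregs. These overlapped, with a mean 25.6% higher in eTregs. The libraries were not separated at any of the other 7 loci, in any of the 4 comparisons. Of 6849 protein-coding genes with at least 3 regions and a mean sum of 20 CPM, 23.4% had sums that did not overlap between the Atg14-deficient states, and 33.0% between the control states, so the separation at 1 of the 8 loci is below the share of all genes. Between genotypes 12.8% of these genes had sums without overlap in eTregs and 5.65% in cTregs, beside 0 of the 8 loci. Tnfrsf25, with 2 regions, is counted among the 8 loci but is below the 3 regions asked of these genes.

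The remaining loci were lower. For Tnfrsf25 the sums were 53.8 ± 4.88, 56.3 ± 6.05, 48.2 ± 2.64 and 60.0 ± 7.5 CPM, for Cd27 39.4 ± 9.44, 48.2 ± 12.4, 33.6 ± 3.61 and 37.2 ± 6.6 CPM, and for Fas 84.1 ± 21.1, 78.9 ± 7.45, 78.9 ± 8.66 and 82.1 ± 5.64 CPM. Atg14-deficient eTregs exceeded control eTregs by 24.5% on average at Tnfrsf25, where 1 of the 4 Atg14-deficient libraries (48.8 CPM) lay within the control range of 45.5 to 50.8 CPM.

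**Figure D2:**
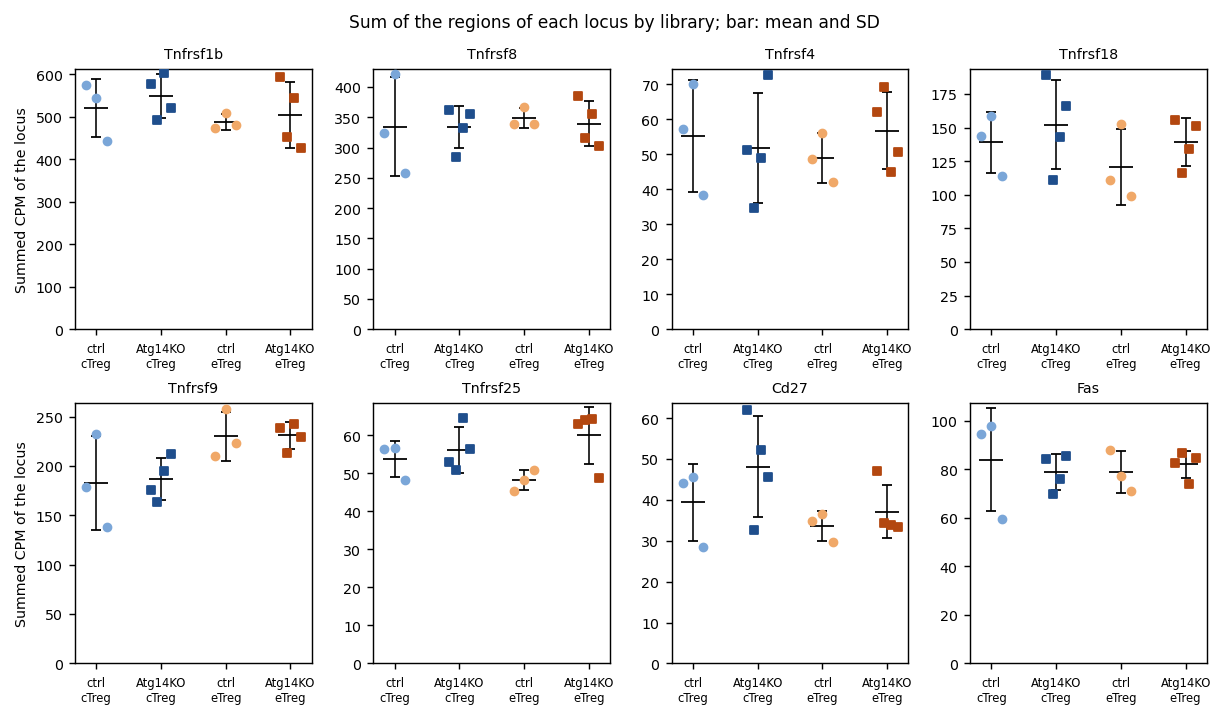
Summed CPM of the regions of each locus in every library (points), with the group mean and SD (bars); ctrl is control, Atg14KO is Atg14-deficient, and the axes start at 0. Libraries of a state overlap between the genotypes, and those of a genotype between the states, at each locus other than Tnfrsf9, where the Atg14-deficient eTreg libraries (213.0 to 243.0 CPM) are above the Atg14-deficient cTreg libraries (164.0 to 212.0 CPM).

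The comparison of control eTregs with control cTregs asked how the loci differ between the resting and the effector state. Of the 56 regions tested, 3 passed an adjusted p of 0.05 with a log2 fold change beyond 0.5, or 5.36%, where 5.30% of all tested regions did. In eTregs 1 was more accessible (2.01% of all tested regions were) and 2 were less accessible (3.29%). At an unadjusted p of 0.05 the members were 12 (21.4%), 4 higher and 8 lower, against 18.2% of all, and at 13 (23.2%) the libraries of the states did not overlap, against 26.0%. The median log2 fold change was 0.04 over these regions and -0.01 over all. By counts and median the receptor loci thus stood near all regions.

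The clearest of these was an intergenic region between Tnfrsf1b and Tnfrsf8, 19.9 kb upstream of the Tnfrsf1b start (chr4:145266544-145266908). Control cTregs had 13.7, 16.3 and 12.0 CPM and control eTregs 1.95, 8.92 and 4.33 CPM. Every eTreg library was below every cTreg library. The log2 fold change was -1.45 (SE 0.41, 95% interval -2.30 to -0.61, adjusted p = 0.0351 by edgeR). Its window holds the TCF-LEF and NF-kB letters shown above.

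A region in an intron of Sdf4, 9.5 kb upstream of Tnfrsf4 (chr4:156004099-156004547), was also less accessible in control eTregs. The values were 21, 18.0 and 14.7 CPM in cTregs and 9.11, 11 and 5.77 CPM in eTregs, without overlap. In log2 terms the difference was -1.08 (SE 0.31, interval -1.71 to -0.45, adjusted p = 0.0363 by edgeR). The Tnfrsf4 promoter itself differed by -0.01 (interval -0.58 to 0.56), and so did not pass the test. In Atg14-deficient libraries the upstream region had 12.6, 13.2, 17.4 and 16.7 CPM in cTregs and 11.4, 12.6, 11.1 and 6.16 CPM in eTregs, lower in each eTreg library by a margin that rounds to 0 at the nearest (log2 fold change -0.56, adjusted p = 0.186 by edgeR).

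The region that was more accessible in control eTregs lies in an intron of a long Tnfrsf9 transcript, 4.6 kb upstream of the nearest Tnfrsf9 coding start (chr4:150915162-150915867), and belongs to the locus by gene body alone, as the nearest coding start is that of Park7. Control cTregs had 40.6, 57 and 32.1 CPM and control eTregs 58.6, 75.3 and 69.2 CPM. The lowest eTreg library was above the highest cTreg library. It amounted to a log2 fold change of 0.63 (SE 0.19, interval 0.25 to 1.01, adjusted p = 0.0426 by edgeR). At the Tnfrsf9 promoter the difference was -0.18 (interval -0.84 to 0.48), and at the second start 0.53 (interval -0.23 to 1.29).

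These calls were close to the threshold, and each depended on single libraries. The count was 0 without control cTreg replicate 1, control eTreg replicate 1 or control eTreg replicate 3, and 1 without control cTreg replicate 2 or 3, fits in which 1.75% to 5.92% of all regions were called. Leaving out a library moved the log2 fold change between -2.08 and -1.12 for the Tnfrsf1b region, between -1.31 and -0.83 for the Tnfrsf4 region and between 0.48 and 0.89 for the Tnfrsf9 region, and the direction was kept in each of these fits. Over all alternative fits the Tnfrsf1b call held in 19 of 24, the Tnfrsf4 call in 21 of 25 and the Tnfrsf9 call in 15 of 25. The Tnfrsf9 call was also lost in fits other than those with 1 library left out (adjusted p up to 0.085 by edgeR). In a sorted bulk population, fewer cells with an open region and a less open region in every cell cannot be told apart.

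Among the Atg14-deficient libraries, 3 of 56 regions differed between eTregs and cTregs (5.36%), where 9.81% of all tested regions did. Of these, 1 was more accessible in eTregs (4.41% of all) and 2 were less (5.40%). At the unadjusted threshold there were 8 (14.3%, against 23.1% of all), and in 4 the libraries of the states did not overlap (7.14%, against 15.5%). The median was -0.04, against 0.02 over all regions. The 3 regions were named after their values were seen.

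The Tnfrsf1b region 19.9 kb upstream was again lower in eTregs. Atg14-deficient cTregs had 24.4, 10.1, 22.1 and 16.7 CPM and Atg14-deficient eTregs 7.79, 5.02, 4.76 and 2.57 CPM, which did not overlap. The fitted log2 fold change was -1.87 (SE 0.37, interval -2.62 to -1.12, adjusted p = 0.00179 by edgeR). It was called in both genotypes and in each alternative fit of the Atg14-deficient comparison that tested it.

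An intergenic region 46.2 kb upstream of Tnfrsf8 (chr4:145361104-145361497) was lower in Atg14-deficient eTregs, at 33.9, 29.3, 40.8 and 29.8 CPM, than in Atg14-deficient cTregs, at 68.0, 61.5, 58.4 and 48.8 CPM. Here too the libraries did not overlap. The log2 fold change was -0.81 (SE 0.15, interval -1.12 to -0.51, adjusted p = 0.00107 by edgeR). Control values were 53.3, 55.8 and 41.0 CPM in cTregs and 39.0, 37.3 and 38.9 CPM in eTregs, also without overlap, a log2 fold change of -0.39 (adjusted p = 0.187 by edgeR).

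The region 28.2 kb upstream of Tnfrsf1b, within a Tnfrsf8 intron (chr4:145274876-145275334), was more accessible in Atg14-deficient eTregs. Those libraries had 58.7, 25.1, 43.1 and 33.6 CPM, against 23.5, 7.79, 14.7 and 15.4 CPM in Atg14-deficient cTregs, and the groups did not overlap. The fitted log2 fold change was 1.40 (SE 0.39, interval 0.58 to 2.22, adjusted p = 0.0313 by edgeR). The call held in 19 of 25 alternative fits and was lost without Atg14-deficient cTreg replicate 2, 3 or 4 or Atg14-deficient eTreg replicate 1, 3 or 4 (adjusted p up to 0.0876 by edgeR). In controls it was 0.53 (adjusted p = 0.537 by edgeR), and control libraries overlapped, with 17.6, 36.1 and 8.03 CPM in cTregs and 30.9, 38.6 and 23.8 CPM in eTregs. With mouse as replicate block the control change was 0.69 and was called (adjusted p = 0.0271 by edgeR). The difference between the genotypes in this change was 0.87 (interval -0.35 to 2.09), which did not pass the unadjusted threshold. With mouse as replicate block it was 0.71 and did (SE 0.29, unadjusted p = 0.0179, adjusted p = 0.875 by edgeR).

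With same-numbered Atg14-deficient libraries treated as pairs (mouse as replicate block), 7 of 56 regions were called (12.5%, against 15.5% of all regions in that fit). Besides the 3 above these were the Tnfrsf9 regions 0.8 kb upstream (log2 fold change 0.56) and at the second start (0.70), the Tnfrsf4 region 5.2 kb upstream (0.67), all more accessible in eTregs, and the Cd27 region 23.1 kb upstream (-1.33), which was less. Without Atg14-deficient cTreg replicate 4 the unpaired count was also 7 (12.5%, against 12.1% of all), and without Atg14-deficient eTreg replicate 2 it was 5 (8.93%, against 10.0% of all).

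**Figure D3:**
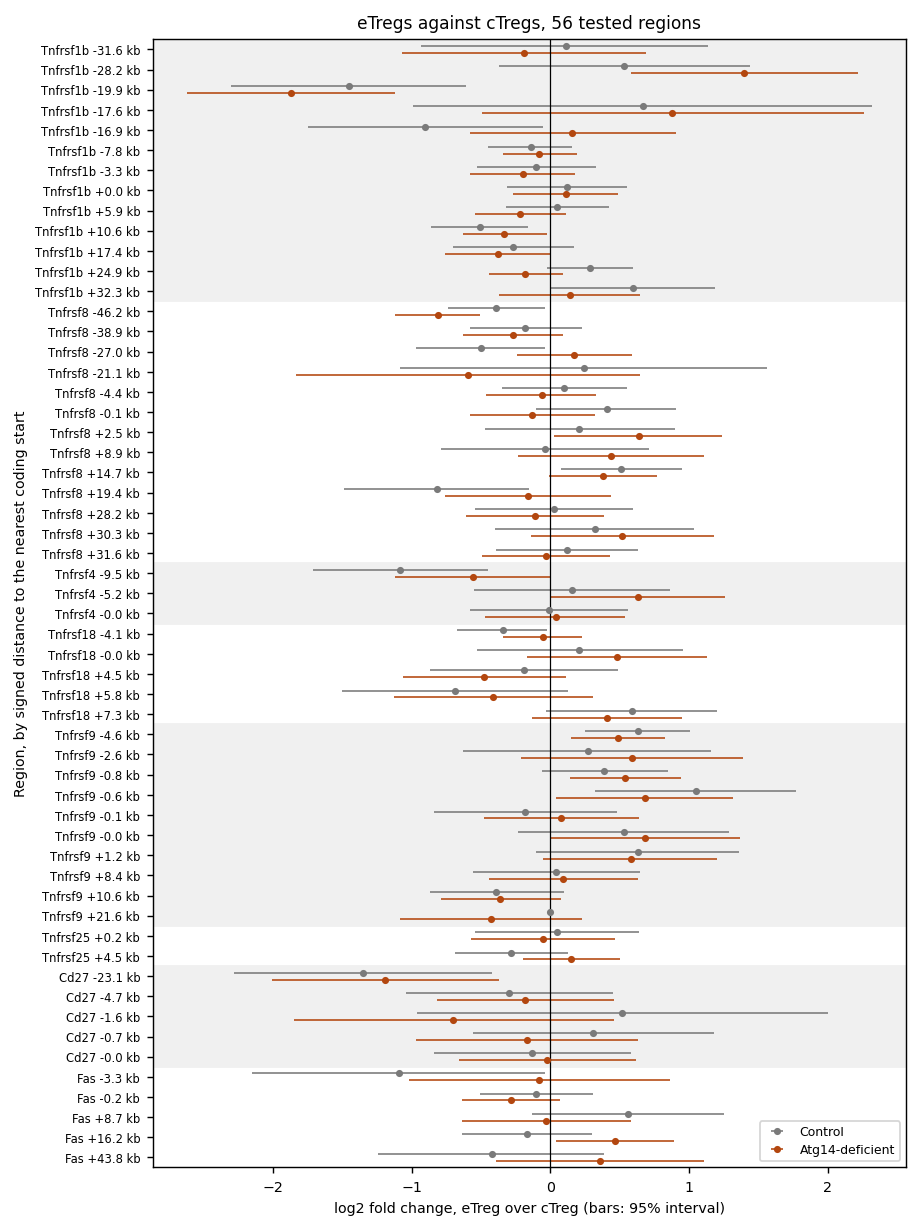
The log2 fold change of eTregs over cTregs at the 56 tested regions in control (grey) and Atg14-deficient (orange) libraries, with 95% intervals from the edgeR fit, grouped by gene; 1 control value at 0 has no interval. The intervals of the Tnfrsf1b region 19.9 kb upstream lie below 0 in both genotypes, from -2.30 to -0.61 and from -2.62 to -1.12.

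Regions not called in the fit without blocks are given by locus. Of the Tnfrsf1b regions, the most accessible one, 10.6 kb downstream, had 150.0, 126.0 and 125.0 CPM in control cTregs and 85.9, 97.1 and 97.9 CPM in control eTregs. The groups did not overlap, and its log2 fold change of -0.51 had an adjusted p of 0.0783 by edgeR. It was called in 7 of 25 alternative fits, among them those with the replicate block (adjusted p = 0.0169) and with mouse as block (adjusted p = 0.000872). In Atg14-deficient libraries the values were 142.0, 134.0, 151.0 and 98.9 CPM in cTregs and 130.0, 86.2, 126.0 and 76.8 CPM in eTregs, which overlapped (log2 fold change -0.33). The Tnfrsf1b promoter differed by 0.12 in controls and 0.11 in Atg14-deficient libraries, with intervals of -0.31 to 0.55 and -0.27 to 0.49.

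At Tnfrsf9, whose product marks recently stimulated T cells, 7 of 10 regions had positive values in both genotypes. Over all regions, 30195 of 61366 were positive in controls and 31699 in Atg14-deficient libraries, and the share positive in both was not computed. For the Tnfrsf9 region 0.6 kb upstream of a start (chr4:150927168-150927614), control cTregs had 8.55, 5.98 and 4.01 CPM and control eTregs 12.7, 13.6 and 13.2 CPM. The libraries did not overlap and the log2 fold change was 1.05, with an adjusted p of 0.0802 by edgeR and of 0.0435 by DESeq2, and of 0.026 by edgeR with mouse as block. In Atg14-deficient libraries it was 0.68 (adjusted p = 0.164 by edgeR).

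The Cd27 region 23.1 kb upstream (chr6:125259840-125260402) had log2 fold changes of -1.35 in controls and -1.19 in Atg14-deficient libraries, with adjusted p of 0.0798 and 0.0541 by edgeR. In controls it was called with mouse as block (adjusted p = 0.0346 by edgeR), and in Atg14-deficient libraries by DESeq2 (0.0406) and with the replicate block (0.0281) or mouse as block (0.0104). Control cTregs had 7.82, 11 and 7.13 CPM there and control eTregs 3.9, 3.15 and 3.24 CPM, which did not overlap. In the Atg14-deficient libraries, 11.8, 9.73, 7.89 and 8.35 CPM in cTregs and 4.19, 9.2, 1.85 and 2.05 CPM in eTregs, 1 eTreg library lay within the cTreg range. At Tnfrsf18 and Tnfrsf25 no region passed the adjusted threshold in either genotype, and the region 4.1 kb upstream of Tnfrsf18 differed by -0.34 (interval -0.67 to -0.02) in controls and by -0.05 (interval -0.34 to 0.23) in Atg14-deficient libraries. At Fas, the promoter values were -0.10 (interval -0.51 to 0.31) and -0.28 (interval -0.64 to 0.07).

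The comparisons of genotypes asked what Atg14 deficiency does to the loci within each state. They share the control and Atg14-deficient groups with the comparisons above. In eTregs, 0 of 56 regions passed the adjusted threshold by edgeR, where 0.0228% of all tested regions did (14 regions), 0 passed at an unadjusted p of 0.05 (against 6.36%), and DESeq2 gave 0 by both. In 1 region the libraries of the genotypes did not overlap (1.79%, against 8.48% of all). The median log2 fold change was 0.13, with 35 of 56 above 0. Over all regions it was 0.06, with 34480 of 61366 above 0. The unadjusted count was 2 without control eTreg replicate 2, and 1 without Atg14-deficient eTreg replicate 1, 3 or 4, where 5.29% to 7.71% of all regions passed.

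The region without overlap was in a Tnfrsf1b intron, 24.9 kb downstream of the start (chr4:145221437-145222436). Control eTregs had 62.5, 68.8 and 65.6 CPM and Atg14-deficient eTregs 61.7, 61.1, 51.4 and 59.1 CPM. The highest Atg14-deficient library lay just under the lowest control, and the log2 fold change was -0.17 (interval -0.46 to 0.11). The smallest p of this comparison, below the fold threshold and named after its values were seen, was at a region in an untranslated exon of Espn, 4.5 kb downstream of the Tnfrsf25 start (chr4:152120459-152121170). It had 29.3, 28.9 and 32.3 CPM in control eTregs and 46.7, 43.9, 45.0 and 29.3 CPM in Atg14-deficient eTregs. Of the latter, 3 of 4 libraries were above all controls and replicate 4 was within their range (log2 fold change 0.44, unadjusted p = 0.0235 and adjusted p = 0.564 by edgeR).

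At the promoters, Atg14-deficient eTregs differed from control eTregs by 0.01 at Tnfrsf1b (interval -0.39 to 0.41), 0.19 at Tnfrsf4 (-0.35 to 0.73), 0.33 at Tnfrsf18 (-0.35 to 1.01), 0.05 at Tnfrsf25 (-0.50 to 0.60), 0.00 at Cd27 (-0.70 to 0.69) and 0.01 at Fas (-0.37 to 0.40). The sign at Tnfrsf1b, Tnfrsf25, Cd27 and Fas changed under other normalizations or without single libraries. At Tnfrsf8 the values were 54.0, 55.6 and 44.5 CPM in control and 47.0, 25.1, 46.3 and 33.4 CPM in Atg14-deficient eTregs, which overlapped (log2 fold change -0.42, interval -0.89 to 0.05). The Tnfrsf9 promoter had 12.0, 15.0 and 8.29 CPM in control and 14.1, 14.2, 16.9 and 21.3 CPM in Atg14-deficient eTregs, also overlapping (0.52, interval -0.09 to 1.14), and the region at its second start differed by -0.08 (interval -0.78 to 0.62). The intervals leave room for changes of up to 1.14 on the log2 scale at these promoters.

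In cTregs, 0 of 56 regions passed the adjusted threshold by edgeR or DESeq2, against 0.0163% of all regions by edgeR (10 regions). At the unadjusted threshold 1 did by either tool (1.79%, against 3.34% by edgeR), and 2 had libraries that did not overlap (3.57%, against 5.50%). The latter were the region in an untranslated exon of Tnfrsf1b (chr4:145214417-145214784), with 12.2, 13.4 and 15.2 CPM in control and 16, 24.1, 18.1 and 16.7 CPM in Atg14-deficient cTregs (log2 fold change 0.47), and the intronic Tnfrsf9 region 10.6 kb downstream (chr4:150939929-150940585), with 35.2, 33.3 and 34.3 CPM against 28.6, 30.8, 30.0 and 31.5 CPM (-0.18). The median was 0.04, against 0.03 over all. The unadjusted count was 0 without control cTreg replicate 1, 4 without control cTreg replicate 2 or 3, 2 without Atg14-deficient cTreg replicate 1 or 2, and 5 without Atg14-deficient cTreg replicate 4 (8.93%). In these fits 3.02% to 4.32% of all regions passed.

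The region past the unadjusted threshold, named after its values were seen, lay in a Vamp1 intron, 1.6 kb upstream of Cd27 (chr6:125238489-125238744). Control cTregs had 1.22, 4.55 and 0.892 CPM and Atg14-deficient cTregs 10.9, 0.779, 7.62 and 11.6 CPM. Of the Atg14-deficient libraries 3 were above all controls and replicate 2 was below them. The log2 fold change was 1.70 (SE 0.66, interval 0.34 to 3.06, unadjusted p = 0.0162 by edgeR), and 1.36 to 2.79 with 1 library left out. At the Cd27 promoter it was -0.11 (interval -0.79 to 0.57).

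The other promoter differences in cTregs were 0.03 at Tnfrsf1b, 0.14 at Tnfrsf4, 0.12 at Tnfrsf8, 0.26 at Tnfrsf9, 0.06 at Tnfrsf18, 0.15 at Tnfrsf25 and 0.20 at Fas. Each interval included 0, and the widest of these, at Tnfrsf18, ran from -0.66 to 0.78. Without control cTreg replicate 3, the signs at Tnfrsf4, Tnfrsf8, Tnfrsf9 and Tnfrsf25 turned, to -0.08, -0.11, -0.05 and -0.17. Of the signs above, that at Fas was kept in each alternative fit. The region at the second Tnfrsf9 start went the other way from the first, by -0.23, with a wider interval (-0.98 to 0.52).

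**Figure D4:**
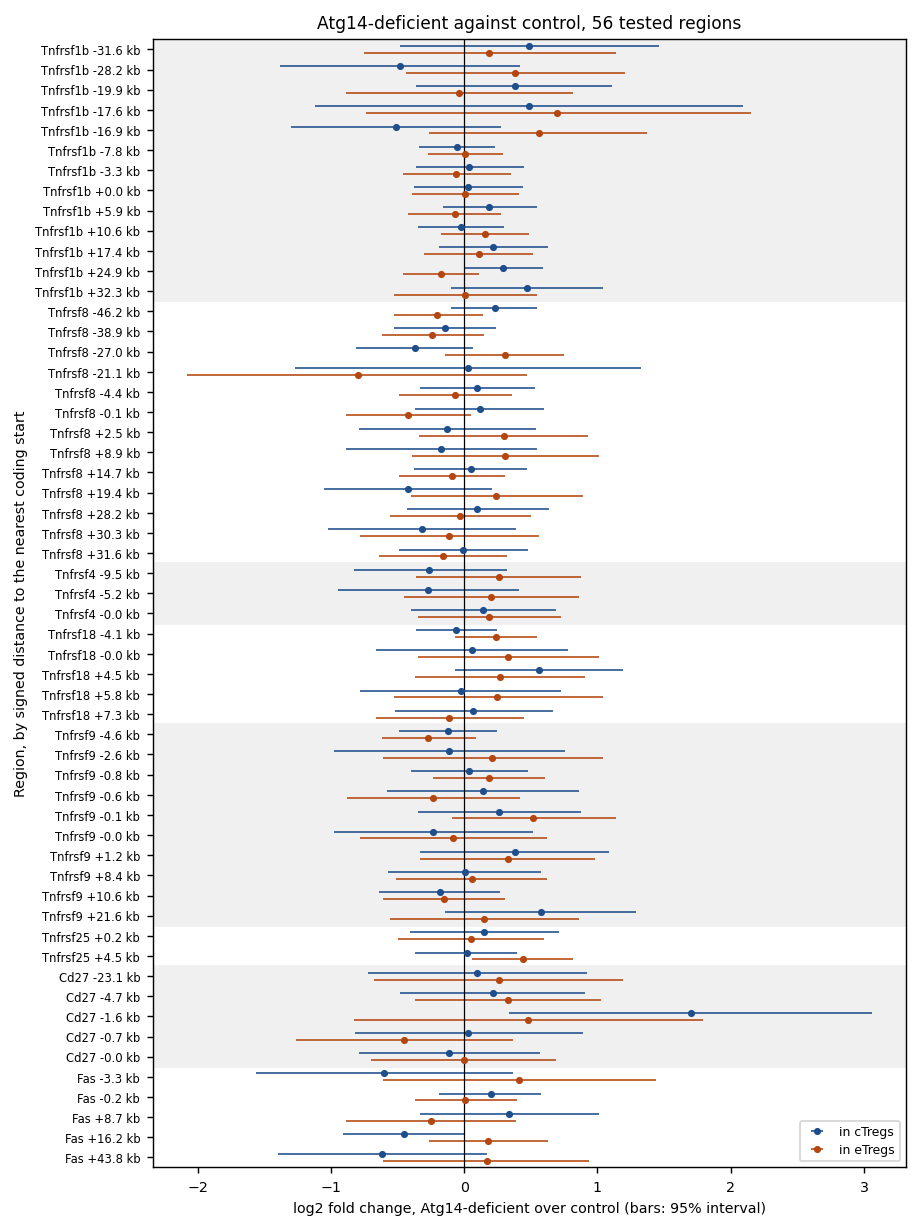
The log2 fold change of Atg14-deficient over control libraries at the 56 tested regions in cTregs (blue) and eTregs (orange), with 95% intervals from the edgeR fit, grouped by gene. Intervals leave out 0 at 1 region in eTregs and 2 in cTregs; the Cd27 region 1.6 kb upstream is farthest from 0, at 1.70 in cTregs (0.34 to 3.06) and 0.48 in eTregs.

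The difference between the genotype effects in eTregs and in cTregs was tested as an interaction. By edgeR 0 of 56 regions passed the adjusted threshold and 2 the unadjusted one (3.57%, where 3.05% of all regions did), and by DESeq2 0 and 1. The smallest p belonged to the Tnfrsf1b region 24.9 kb downstream (difference -0.47, SE 0.20, interval -0.87 to -0.06, unadjusted p = 0.0269 by edgeR), which is below the fold threshold. There, control cTregs had 65.0, 47.1 and 48.2 CPM and Atg14-deficient cTregs 68.0, 57.6, 75.2 and 61.7 CPM, so the cTreg means differed upwards (53.4 ± 10.0 against 65.6 ± 7.68 CPM, SD) and the eTreg means downwards (65.6 ± 3.15 against 58.3 ± 4.77 CPM). Next was the region 27.0 kb upstream of Tnfrsf8 (chr4:145341638-145342602), with a difference of 0.67 (SE 0.31, interval 0.05 to 1.30, unadjusted p = 0.0353 by edgeR). It had 29.3, 41.9 and 23.2 CPM in control cTregs, 21, 21, 25.2 and 30.8 CPM in Atg14-deficient cTregs, 19.5, 24.1 and 23.4 CPM in control eTregs, and 33.9, 28.4, 22.8 and 26.2 CPM in Atg14-deficient eTregs. The genotypes overlapped in both states. The other region past both limits was in a Fas intron, 16.2 kb downstream (chr19:34306617-34307245), with a difference of 0.64 (unadjusted p = 0.05 by edgeR after rounding), from 0.18 in eTregs and -0.45 in cTregs. The unadjusted count was 0 without control eTreg replicate 1 or Atg14-deficient eTreg replicate 1, 1 without Atg14-deficient cTreg replicate 1, 4 without control eTreg replicate 2, and 5 without control cTreg replicate 3 or Atg14-deficient cTreg replicate 4, where 2.67% to 4.05% of all regions passed. It was also 5 in the fit with mouse as replicate block (8.93%, against 4.52% of all).

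**Figure D5:**
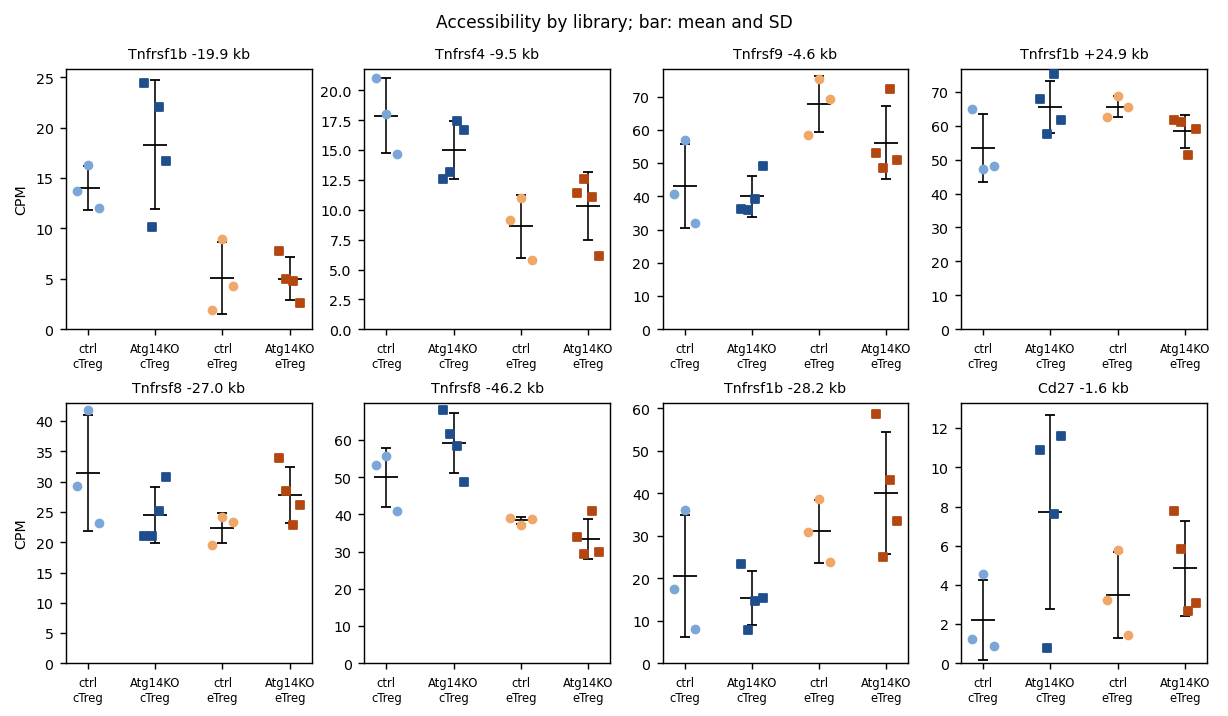
CPM in every library (points) at 8 named regions, with the group mean and SD (bars); ctrl is control, Atg14KO is Atg14-deficient, and the axes start at 0. The eTreg libraries lie below the cTreg libraries of the same genotype at the Tnfrsf1b region 19.9 kb upstream, the Tnfrsf4 region 9.5 kb upstream and the Tnfrsf8 region 46.2 kb upstream, while the genotypes overlap within each state at all regions shown other than the Tnfrsf1b region 24.9 kb downstream in eTregs.

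Other genes of the pathway are given for scale. The regions of 19 other TNF receptors (59 tested), of the TNF family ligands (113) and of TRAF, caspase and NF-kB signalling genes (147) were called between control states at 3 (5.08%), 9 (7.96%) and 10 (6.80%), of which 2, 7 and 9 were lower in eTregs, where 5.30% of all regions were called. Between Atg14-deficient states they were called at 5 (8.47%), 14 (12.4%) and 20 (13.6%), against 9.81% of all. Most of the 20 lay at Tnfaip3 and Tank, out of 16 signalling genes, so these shares do not describe the genes of a list alike. Between genotypes 0 regions of each list passed the adjusted threshold by edgeR in either state, and at the unadjusted threshold the counts in eTregs were 6 (10.2%), 13 (11.5%) and 9 (6.12%), against 6.36% of all regions, and in cTregs 6 (10.2%), 8 (7.08%) and 3 (2.04%), against 3.34%. Named by smallest p between control states, these were regions of Tnfrsf19, a receptor of unclear role in T cells, at its promoter (log2 fold change -1.39), of Fasl, the ligand of Fas, 75.2 kb from its start (-1.20), and of Tnfaip3, which encodes the NF-kB inhibitor A20, 101.7 kb upstream (-1.53). Their adjusted p were 0.00264, 0.00353 and 0.000362 by edgeR. The 3 regions of Fasl named by this rule were each lower in control eTregs, by -1.20, -0.77 and -1.58. All 3 are intergenic and were picked by their p, so they do not describe the Fasl locus as a whole. Fasl regions that were not called are not given, and a difference between the Fasl and Fas loci was not tested.

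The summed accessibility of each locus was also compared with that of the other genes with at least 3 regions and a mean sum of 20 CPM, by Pearson correlation of log2 CPM over the 14 libraries. The closest genes were Rnf125 and Rnf144a (both 0.89) for Tnfrsf1b, 4930583I09Rik (0.88) and Itpr1 (0.86) for Tnfrsf8, Fam53b (0.85) and Lnx2 (0.82) for Tnfrsf4, and Scgb1a1 (0.94) and Gzmb (0.92) for Tnfrsf18. For Tnfrsf9 they were Errfi1 (0.98), whose 6 regions end on the same chromosome at 150865571 and include 0 of those of Tnfrsf9, and Cass4 (0.95). Il6ra (0.80) and Wwox (0.79) were closest to Tnfrsf25, Stk4 (0.93) and Lyzl1 (0.91) to Cd27, and Pkig (0.85) and Plagl1 (0.81) to Fas. All points share the libraries' depth and promoter share, and the genes were picked from 6848 as the highest, so these values are descriptions only.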

How the data were processed

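Bulk ATAC-seq was deposited as 1 table of raw read counts per region, made by the authors from 14 libraries. The paper's methods describe adaptor trimming, alignment with BWA, removal of duplicates, shifting of reads for the transposase, selection of nucleosome-free fragments, MACS2 peaks kept when present in at least 50% of replicates and merged, and counting with bedtools. They name the mm9 build, whereas the submitters' processing notes name mm10 (GRCm38), cutadapt 1.9, Picard 1.65 and MACS2 2.1.0.20150603. GRCm38 was used here: all 67207 regions on chromosomes lie within its chromosome ends, and 10702 of 21924 gene starts have a region within 200 bp, a number that drops to 793 when starts are moved by 20000 bp. Per library 74.7% to 87.0% of the region counts were even numbers, which is the pattern of fragments counted by their 2 ends, so counts may overstate the number of independent fragments.

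Gene starts and bodies were those of the GENCODE M21 basic annotation. Counts of the 4 groups were fitted together in edgeR 4.0.16 (R 4.3.3; limma 3.58.1) by the quasi-likelihood test after filterByExpr, scaled by library totals, with Benjamini-Hochberg adjustment over 61366 regions. Calls needed an adjusted p of 0.05 and a log2 fold change beyond 0.5. The common biological coefficient of variation was 25.6%. SE and intervals were taken from the test's F value. DESeq2 1.42.0, other normalizations, other filters, other assignments of regions, replicate blocks and leaving out each library were alternatives. Exact permutation tests were not used, since 3 against 4 libraries cannot go below p = 0.0571 and 3 against 3 not below 0.1, although 4 against 4 can reach 0.0286. Other steps used Python 3.11.15.

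Replicate pairs within a group differed by more than independent counts would (chi-square per degree of freedom 2.5 to 4.56). Counts may hold both ends of a fragment, which raises this value, so the excess over sampling noise was not measured. The labels do not say whether cTreg and eTreg libraries of one number share a mouse. Deviations from group means correlated by 0.119, 0.243, 0.14 and 0.225 in same-numbered Atg14-deficient libraries, and by 0.0543, 0.209 and 0.19 in controls. Same-numbered libraries of 1 state but different genotype, which cannot share a mouse, gave -0.217 to 0.0914. Differently numbered libraries of the 2 states were not compared, so these values cannot settle whether a mouse is shared. The main fit has no block, and mouse as a block was an alternative for both genotypes.

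Named regions were each gene's promoter, the called regions between control states, the 2 of smallest p in the interaction, the 3 of highest mean and, for other lists, those of smallest p. The 3 regions called between Atg14-deficient states, the Cd27 region 1.6 kb upstream, the Tnfrsf9 0.6 kb, Cd27 23.1 kb and Tnfrsf25 4.5 kb regions, and regions named beside counts of 5 or fewer, were named after their values were seen. Members and gene lists were chosen with earlier results of these data known. One marker gene of another cell type is not reported here.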

Additional observations from a re-analysis of the deposited data

Results flagged for a closer look

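Of 54 groups of 4 libraries examined for a single outlying library, 2 had one, where chance marks about 1 group in 20. The summed accessibility of Tnfrsf25 in Atg14-deficient eTregs was 48.8 CPM in replicate 4, against 62.9, 64.0 and 64.3 CPM in the others. That of Cd27 in the same group was 47.0 CPM in replicate 1, against 33.4, 33.9 and 34.3 CPM.

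For 3 intronic or intergenic regions the genotype effect differed between states by the unadjusted interaction test in edgeR. The difference, eTregs minus cTregs, was -0.47 on the log2 scale at the Tnfrsf1b region 24.9 kb downstream, 0.67 at the Tnfrsf8 region 27.0 kb upstream and 0.64 at the Fas region 16.2 kb downstream. None of the 3 passed the adjustment over all regions.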

How the results depend on the processing

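The 9 log2 fold changes between states had 223 values under alternatives, of which 191 kept direction and side of the adjusted threshold, 25 lost the call and 7 gained it. The 19 between genotypes and for the interaction had 455, held to the unadjusted threshold since none was called under any alternative: 403 kept direction and side, 7 no longer passed, 5 newly passed and 40 changed sign, all of these at promoters between genotypes. In eTregs the Tnfrsf1b promoter was -0.04 with TMM, -0.03 with DESeq2 size factors and -0.03 by the DESeq2 Wald test, and -0.20 to 0.16 with 1 library left out. Tnfrsf25 was 0.00 with TMM and -0.02 with the replicate block (-0.02 to 0.11 with 1 library left out), and Cd27 was 0.02 with loess offsets, 0.01 with at least 10 counts in every library and 0.01 with the replicate block (-0.27 to 0.29). Fas was -0.04 with TMM, -0.03 with DESeq2 size factors, GC-content offsets or DESeq2, -0.01 with the replicate block and -0.04 with both the block and GC-content offsets (-0.07 to 0.14). In cTregs Tnfrsf1b was 0.00 with TMM or the replicate block (-0.06 to 0.13), and Tnfrsf18 was -0.01 with the block, alone or with GC-content offsets (-0.04 to 0.20). With 1 library left out the others ranged from -0.08 to 0.52 (Tnfrsf4), -0.11 to 0.47 (Tnfrsf8), -0.05 to 0.55 (Tnfrsf9), -0.17 to 0.54 (Tnfrsf25) and -0.22 to 0.11 (Cd27).

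Calls between control states (3) ranged from 0 to 4 with 1 library left out, where 1.75% to 5.92% of all regions were called. They were 7 with mouse as replicate block (12.5%, against 10.4% of all) and 1 by gene body only. Calls between Atg14-deficient states (3) ranged from 2 to 7 with 1 library left out, against 4.62% to 12.1% of all. They were 7 with that block (12.5%, against 15.5% of all) and 1 by gene body only. With the replicate block and GC-content offsets they were 6 (10.7%, against 10.3%). Adjusted calls between genotypes stayed at 0 under each alternative. The unadjusted count in eTregs (0) was 1 with loess offsets or either replicate block (1.79%, against 5.69% to 6.76% of all). It was 0 to 2 with 1 library left out, against 4.68% to 7.81% of all. In cTregs (1) it was 0 with at least 10 counts in every library, against 2.76% of all, or by gene body only. With the replicate block it was 3 (5.36%, against 3.46% of all), and with GC-content offsets added 5 (8.93%, against 3.45%). It was 0 to 5 with 1 library left out, against 3.02% to 4.32% of all. For the interaction (2) it was 1 with TMM, DESeq2 size factors, loess offsets or DESeq2 (1.79%, against 3.03% to 3.12% of all). With at least 10 counts in every library it was also 1 (2.27%, against 3.4%), and 1 by gene body only. Beyond a log2 fold change of 1 it was 0, and with mouse as block 5 (8.93%, against 4.52% of all). With 1 library left out it was 0 to 5, against 2.67% to 4.05% of all. Same-numbered libraries of the 2 genotypes did not deviate together (correlations of -0.217 to 0.0914), so the replicate block pairs only numbers there. The cause of these shifts was not tested.

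Depth limits the low regions: a tested region had a median of 23 counts per library.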
